A study of Mus musculus with 18 samples.

Results

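The mRNA decay factors described here are 6 genes whose proteins bind the transcripts of cytokines and other inflammatory genes and have them degraded. They are Zfp36, Zfp36l1 and Zfp36l2, the tristetraprolin family, Zc3h12a, which encodes the endonuclease Regnase-1, and Rc3h1 and Rc3h2, which encode Roquin-1 and Roquin-2. They were chosen by gene symbol and are 6 of the 45777 genes in the deposited table. All 6 passed the filter on low counts, which left 17159 genes to test. On GRCm38.p6, by RefSeq, Zfp36 lies at chr7:28376784-28379228, Zfp36l1 at chr12:80107760-80113013, Zfp36l2 at chr17:84183924-84187947, Zc3h12a at chr4:125118414-125127881, Rc3h1 at chr1:160906411-160974976 and Rc3h2 at chr2:37368861-37424370, and counts were taken over the whole gene.

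The study asked whether Sirt6 deficiency alters transcription in mouse BMMC, mast cells grown from bone marrow flushed out of femurs and tibias; Sirt6 is a NAD-dependent deacetylase of chromatin. The KO group carried LysM-Cre; Sirt6 flox/flox and the WT group carried Sirt6 flox/flox, with no Cre named, so both groups hold the floxed allele. LysM-Cre is driven by the lysozyme M promoter, which is active chiefly in myeloid cells. Each genotype was sampled at the levels 0, 20 and 60, with LPS, a bacterial lipopolysaccharide, named in the labels at 20 and 60 and no agent named at 0. The sources used here give no unit for the levels and no strain or age for the animals. FcεRI, through which mast cells respond to IgE, stands in the title of the series, so values are given here by level only. Words such as rise and fall below name differences between levels, since no unit says whether the levels are times or doses. Each of the 6 groups held 3 libraries, which carried the numbers 414, 4120 and 6110 in every group. The labels do not say whether a number stands for 1 animal, so p-values measure the spread between these libraries, which may be technical in part.

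The 18 libraries held between 20026054 and 42265435 counts, and values are given as CPM, which are counts scaled to library size, on which 3 counts stood for 0.071 to 0.15 CPM. Mitochondrial genes took between 4.09% and 41.9% of a library, a share that varied within groups, and its correlation with the members within groups ran from -0.33 to 0.29 over the 18 libraries. The share averaged 13.8%, 6.35% and 14.5% in KO cells at levels 0, 20 and 60, and 22.7%, 17.5% and 22.2% in WT cells. Sirt6 itself was not lower in KO cells at the level of whole-gene counts. At level 0 it stood at 13.7, 17.7 and 18.7 CPM in KO libraries and 11.99, 14.9 and 16.8 CPM in WT libraries. At level 20 it stood at 14.8, 15.5 and 21.1 CPM in KO libraries and 10.7, 16.6 and 16.9 CPM in WT libraries, and at level 60 at 10.5, 11.2 and 13.7 CPM in KO libraries and 9.73, 10.7 and 11.8 CPM in WT libraries. The groups overlapped at each level, and a count over the whole gene cannot show a deletion of part of it, so KO and WT are used as the labels give them. All 11 mast cell markers were present, with Cpa3, Cma1 and Tpsb2 highest, and their summed level lay between 15800 and 46800 CPM in every group. The 9 markers of neutrophils and their precursors summed to 7.15 to 26.9 CPM in the KO libraries and to 0 to 5.29 CPM in the WT libraries, with no overlap between genotypes. The 9 macrophage markers summed to 76 to 289 CPM in KO libraries and 29.9 to 193 CPM in WT libraries. Most of that sum was Cd68, which averaged 123 CPM over the 18 libraries, with Adgre1 next at 5.1 CPM. Itgam, at a mean of 0.673 CPM, was higher in KO cells at level 0 by the edgeR test described below (log2 4.70, adjusted p = 0.0334). It was the 1 call among 5 of these markers tested at that level. The part of these other cells in any genotype difference below was not tested, and in bulk RNA fewer cells of a type and less RNA per cell cannot be told apart.

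Cytokine mRNAs are short-lived because sequence and structure elements in their 3′ untranslated regions (3′ UTRs) recruit decay factors. Proteins of the ZFP36 family bind AU-rich elements through a tandem pair of CCCH zinc fingers and recruit the CCR4-NOT deadenylase, while Regnase-1 cuts, and Roquin proteins bind, stem-loops with a short pyrimidine-purine-pyrimidine loop. Several of these factors are encoded by genes that the same inflammatory signals induce, and ZFP36 and Regnase-1 are both known to act on their own transcripts.

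Sequences are shown first for the promoters of the 3 members that passed the edgeR test described below at level 20 in both genotypes, since their letters can be set beside the response. Each covers 250 bases before to 50 bases after the start of the gene, on the gene's strand, from RefSeq on GRCm38.p6. Promoter entries for 5 of the 6 members were matched by symbol, those other than Zfp36l2. Capitals mark matches to 7 motifs searched on both strands: the CArG box, which serum response factor binds, the kappaB site, the EGR site GCGNGGGCG, the AP-1 site TGANTCA, the cyclic AMP response element TGACGTCA, the GC box GGGCGG and the TATA box TATAAA. Zfp36 lies at chr7:28379179-28379478 on the minus strand, Zfp36l1 at chr12:80112964-80113263 on the minus strand and Zc3h12a at chr4:125127832-125128131 on the minus strand.
Zfp36 promoter: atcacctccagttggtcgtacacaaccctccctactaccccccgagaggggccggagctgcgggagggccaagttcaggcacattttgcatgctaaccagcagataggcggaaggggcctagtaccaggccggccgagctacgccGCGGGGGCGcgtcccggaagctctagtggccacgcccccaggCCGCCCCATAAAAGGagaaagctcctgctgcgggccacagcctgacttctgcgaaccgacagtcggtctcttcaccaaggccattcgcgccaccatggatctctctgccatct
Zfp36l1 promoter: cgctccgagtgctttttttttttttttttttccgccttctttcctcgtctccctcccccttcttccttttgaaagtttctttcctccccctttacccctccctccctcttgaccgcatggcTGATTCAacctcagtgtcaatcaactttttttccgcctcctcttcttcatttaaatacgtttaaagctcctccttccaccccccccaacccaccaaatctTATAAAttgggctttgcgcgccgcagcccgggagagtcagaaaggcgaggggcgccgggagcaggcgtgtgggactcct
Zc3h12a promoter: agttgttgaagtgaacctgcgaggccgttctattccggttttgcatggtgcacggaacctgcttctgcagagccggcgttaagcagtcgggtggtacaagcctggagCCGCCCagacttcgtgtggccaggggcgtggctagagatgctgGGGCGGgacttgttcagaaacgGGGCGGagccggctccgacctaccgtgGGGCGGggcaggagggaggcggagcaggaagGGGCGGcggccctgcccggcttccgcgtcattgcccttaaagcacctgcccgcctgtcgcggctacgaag

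The promoters differed in the motifs they held. The Zfp36 window held a CArG box, CCATAAAAGG, that began 58 bases before the start, a GC box that overlapped it by 1 base, and an EGR site, GCGGGGGCG, that began 105 bases before the start. The CArG box was present in 1.63% and the EGR site in 5.55% of 32851 RefSeq promoter windows of the same length. The Zfp36l1 window held an AP-1 site, TGATTCA, 129 bases before the start and a TATA box 29 bases before it, motifs found in 7.81% and 13.6% of windows. The Zc3h12a window held 5 GC boxes and none of the other 6 motifs, and 35.7% of windows held at least 1 GC box. Among the members that did not pass the test at level 20, the Rc3h1 window held 6 GC boxes and an AP-1 site, and the Rc3h2 window held no match. That Rc3h2 window, chr2:37422854-37423153 on the minus strand, lies inside the gene interval given above, so it does not cover the outermost start of the gene. No kappaB site and no cyclic AMP response element occurred in these 5 windows, against 8.46% and 1.79% of all windows. Such matches describe letters only.

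The AU-rich nonamer TTATTTATT, the core to which ZFP36 proteins bind, occurred once in the annotated 3′ UTR of each of 5 members and in none of the 856 bases of the Zc3h12a 3′ UTR. The sites are shown because Zfp36, Zfp36l1 and Zfp36l2 carry in their own transcripts the element that their family binds. Those of Rc3h1 and Rc3h2 hold it too, though Roquin proteins are described as binding stem-loops. The sites are given with the nonamer in capitals and 9 bases on each side, on the strand of the transcript. They come from GENCODE M21 on GRCm38, from the transcript of each gene with the longest coding sequence. The Zfp36 site lies at chr7:28376952-28376978, the Zfp36l1 site at chr12:80108168-80108194, the Zfp36l2 site at chr17:84184915-84184941 and the Rc3h2 site at chr2:37373288-37373314, all on the minus strand, and the Rc3h1 site at chr1:160970044-160970070 on the plus strand. The last line gives, for comparison, the start of the AU-rich element of Tnf, the best-known target of tristetraprolin, at chr17:35199690-35199716 on the minus strand, in which nonamers overlap.
Zfp36: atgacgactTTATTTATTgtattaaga
Zfp36l1: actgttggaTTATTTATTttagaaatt
Zfp36l2: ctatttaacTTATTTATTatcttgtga
Rc3h1: ctttactcaTTATTTATTgagatgagg
Rc3h2: aaagacattTTATTTATTttactctgt
Tnf: ttgcacttaTTATTTATTATTTATTTA

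A nonamer is less common in short 3′ UTRs, so each member was set beside genes with a 3′ UTR within 25% of its length. Of such genes, 4.49% held at least 1 nonamer at the 774 bases of Zfp36, 9.26% at the 1835 bases of Zfp36l1, 9.09% at the 1822 bases of Zfp36l2, 27.9% at the 7181 bases of Rc3h1 and 22% at the 5160 bases of Rc3h2. The Tnf 3′ UTR held 5 nonamers in 764 bases, and those of Csf2 and Cxcl2 held 4 each. Other described targets named below held fewer. The 3′ UTR of Ptgs2 held 1, and those of Il6, Il12b, Ccl3, Nfkbiz, Nfkbid, Icos and Tnfrsf4 held 0 each. Those of Icos and Tnfrsf4 were short, at 106 and 180 bases, and 0.63% and 1.36% of genes of similar length held a nonamer.

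Levels can be compared between genes only per length, as TPM, which scale counts by transcript length and library size. At level 0 in KO cells the order from high to low was Zfp36l2, Zfp36l1, Zc3h12a, Zfp36, Rc3h2 and Rc3h1, with means of 100.2, 61.7, 12.3, 5.79, 5.69 and 3.69 TPM. In WT cells the order was the same at level 0, with means of 72.4, 42.0, 12.6, 5.43, 3.14 and 2.40 TPM. The libraries of Zfp36l2 and Zfp36l1 overlapped at level 0 in both genotypes, as did those of Zfp36, Rc3h2 and Rc3h1 as neighbours in the order. Zfp36l2 and Zfp36l1 thus made up most of the family at level 0, and tristetraprolin's own mRNA was a small part of it.

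The ZFP36 family was then summed at each level in TPM, whose total includes mitochondrial transcripts and which carry no TMM scaling. The mitochondrial share averaged lower in KO cells at each level. For counts scaled by library size alone, the all-gene median KO minus WT difference shifted by 0.16 (log2) at levels 0 and 20. The part of such scaling in genotype differences of the sums was not tested. The 3 ZFP36 genes together averaged 167.7 ± 56.9, 528 ± 85.8 and 151.3 ± 34.6 TPM at levels 0, 20 and 60 in KO cells, and 119.8 ± 42.0, 409.4 ± 124.7 and 130.8 ± 31.9 TPM in WT cells (SD, n = 3 each). Zfp36 supplied 3.41% ± 0.253, 25.2% ± 1.91 and 9.23% ± 1.08 of that sum at levels 0, 20 and 60 in KO cells, and 4.38% ± 3.04, 18.3% ± 7.54 and 7.95% ± 6.66 in WT cells (SD, n = 3 each). In KO cells the share at level 20 did not overlap those at the other levels, while in WT cells it ran from 13.9% to 27.03% at level 20 and overlapped level 60, at 3.08% to 15.5%. The shares were not tested. At level 20 the KO means were 198.5 TPM for Zfp36l1, 196.5 for Zfp36l2, 133 for Zfp36 and 33.0 for Zc3h12a, and the WT means were 161.1, 173.5, 74.7 and 36.8 TPM for the same genes. Zfp36l1 and Zfp36l2 again overlapped, and Zfp36 lay above Zc3h12a without overlap in KO cells only. Rc3h1 and Rc3h2 stayed between 2.40 and 5.69 TPM in all 6 group means.

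**Figure D1:**
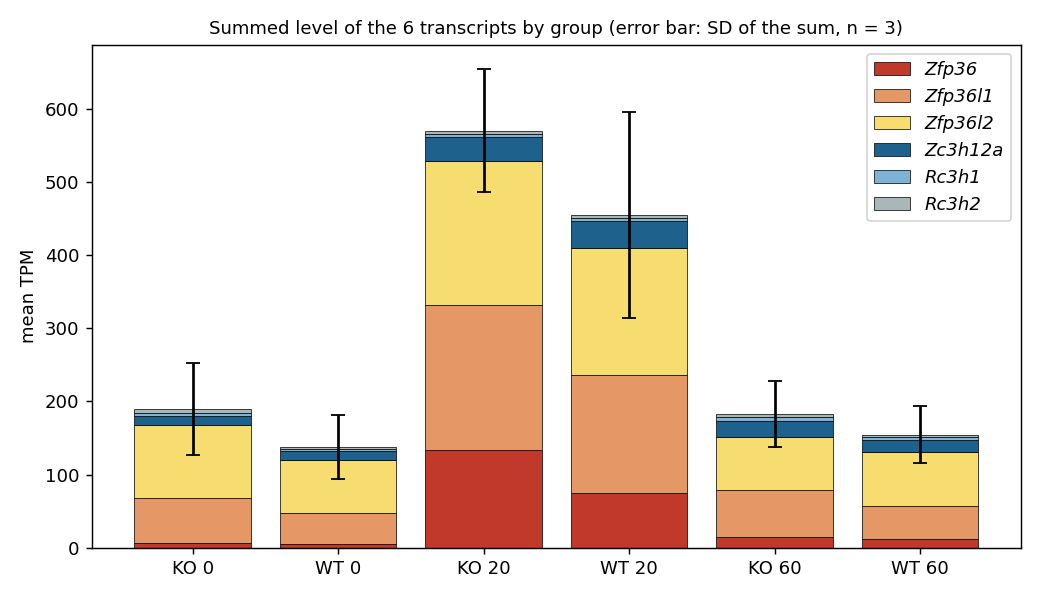
Mean TPM of the 6 members, stacked, in KO and WT cells at levels 0, 20 and 60, with the SD of the sum over 3 libraries as the error bar. The sum is highest at level 20 in both genotypes, at 570.2 TPM in KO cells and 454.9 TPM in WT cells, where Zfp36 is a visible part of the bar. TPM totals include mitochondrial transcripts, whose share averaged lower in KO cells at each level.

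Responses to the levels were tested on counts, with edgeR's quasi-likelihood F test and Benjamini-Hochberg adjustment over the 17159 genes, and an adjusted p under 0.05 is named a call. All adjusted p-values below come from that test unless another fit is named. Between level 20 and level 0, 3 of the 6 members rose in KO cells, where 0.449% of all genes were called and 0.443% were called higher, and 3 rose in WT cells, where 0.600% of all genes were called, all of them higher. They were Zfp36, Zfp36l1 and Zc3h12a in both genotypes. With the library numbers as a block, DESeq2 or limma-voom, 4 were called in each genotype, Zfp36l2 with them. Over 10 alternatives 2 to 4 were called in KO cells and 1 to 4 in WT cells. The median log2 fold change of the members was 1.22 in KO cells and 1.29 in WT cells, beside medians over all genes of -0.03 and -0.02. The comparisons of 20 and of 60 with 0 share the level 0 libraries, and those with level 20 share its libraries.

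Between level 60 and level 20, Zfp36, Zfp36l1 and Zfp36l2 fell in KO cells, where 1.11% of all genes were called and 0.361% were called lower. In WT cells edgeR called 1 member, Zfp36l1, which fell, where 0.443% of all genes were called and 0.286% were called lower, while DESeq2 and limma-voom called 4 members each. Between level 60 and level 0, Zc3h12a rose in KO cells, where 2.54% of all genes were called and 1.99% called higher. No member passed in WT cells, where 0.221% were called, and DESeq2 called 0. There 1 of the 6 had an unadjusted p under 0.05, beside 1363 of the 17159 genes tested. With the library numbers as a block the genes called between level 20 and level 0 numbered 158 in WT cells in place of 103. The same block called 1094 genes in place of 436 between levels 60 and 0 and 521 in place of 191 between levels 60 and 20 in KO cells.

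**Figure D2:**
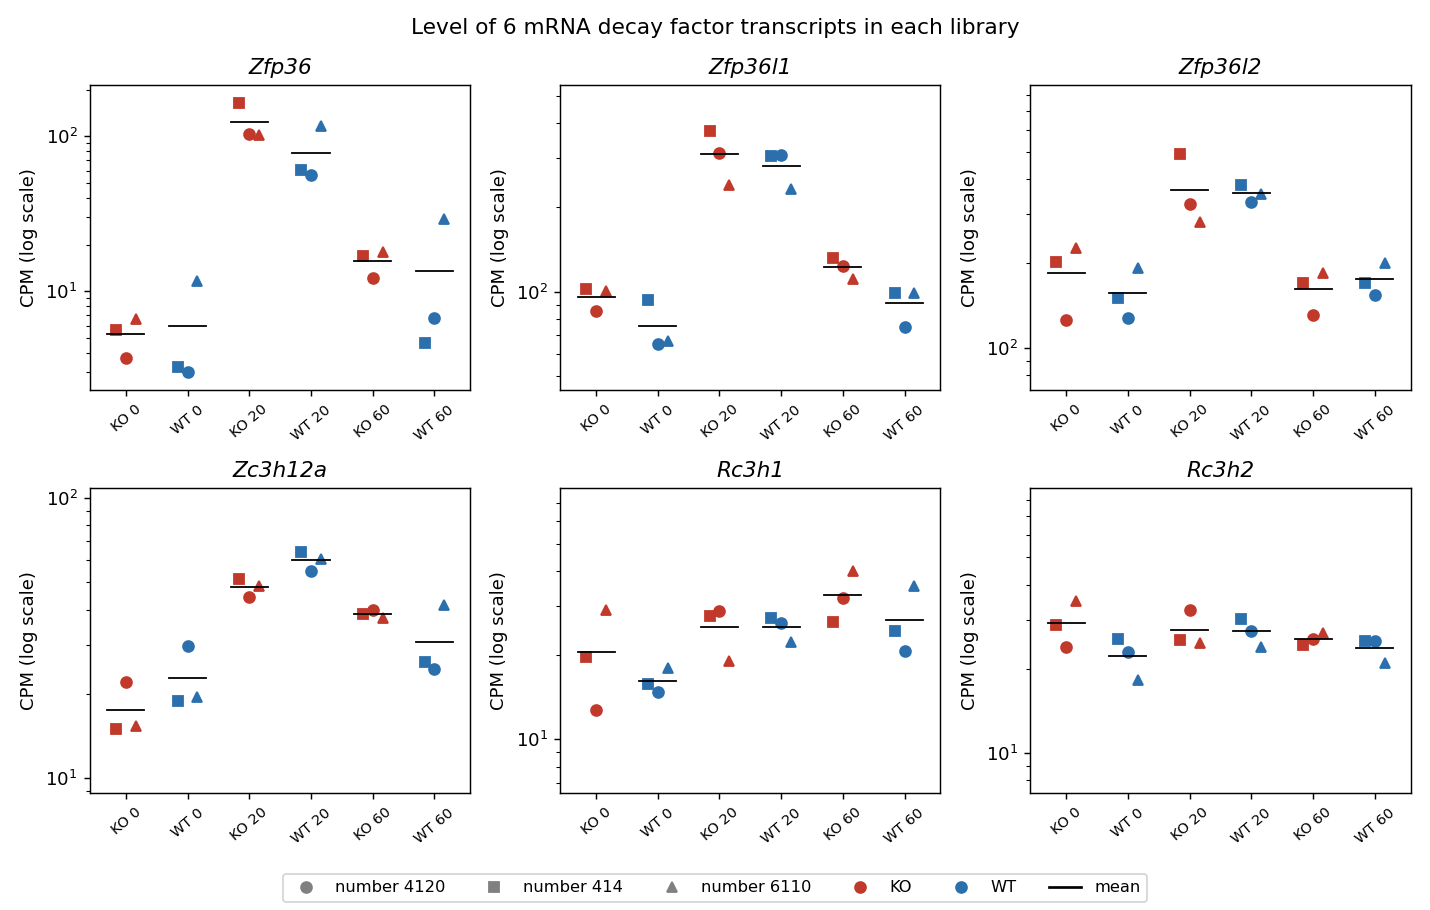
CPM of each member in every library on a log axis, in KO and WT cells at levels 0, 20 and 60, with a marker for each library number and a bar at the group mean. Zfp36, Zfp36l1 and Zc3h12a separate level 20 from level 0 in both genotypes, and the WT library numbered 6110 is the highest WT library for Zfp36 at each level.

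Zfp36 encodes tristetraprolin, which shortens the poly(A) tail of Tnf and many other cytokine mRNAs. In KO cells, in libraries 414, 4120 and 6110, it stood at 5.66, 3.71 and 6.59 CPM at level 0, at 165.2, 103.9 and 102.3 CPM at level 20 and at 17.01, 12.1 and 17.97 CPM at level 60. In WT cells the same libraries held 3.26, 3.01 and 11.6 CPM at level 0, 60.7, 56.0 and 116.5 CPM at level 20 and 4.61, 6.70 and 29.2 CPM at level 60. Every library at level 20 was above every library at levels 0 and 60 of its genotype, and the WT library 6110 was the highest of its group at each level. The rise at level 20 was 23.3-fold in KO cells (log2 4.54 ± 0.69, SE, adjusted p = 0.00265) and 12.9-fold in WT cells (log2 3.69 ± 0.66, SE, adjusted p = 0.0122). From level 20 to level 60, Zfp36 fell in KO cells with a log2 change of -2.98 ± 0.64 (SE, adjusted p = 0.0326), a 7.88-fold reduction. In WT cells that change was -2.52 ± 0.62 on the log2 scale (SE, adjusted p = 0.108). DESeq2 (adjusted p = 0.00242), limma-voom (adjusted p = 8.13e-05) and edgeR with the library numbers as a block (adjusted p = 0.00673) called this WT change. It was not called with other scalings, no filter, mitochondrial share as a covariate or only the groups compared. At level 60 Zfp36 differed from level 0 by 1.56 in KO cells (adjusted p = 0.234) and 1.17 in WT cells (adjusted p = 0.699), both on the log2 scale.

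Single libraries decided some of these calls. Without WT library 4120 or 414 at level 0, the rise in WT cells had an adjusted p of 0.0875 or 0.121, at a log2 change of 3.39 in both cases. Without any 1 of the KO libraries at level 20 or 60, the fall in KO cells had an adjusted p between 0.0801 and 0.145. Without WT library 6110 at level 60 the fall in WT cells was -3.79 on the log2 scale, with an adjusted p of 0.00811. The rise in KO cells was called without each single library in turn, and was lost without number 4120 or 414 in all groups (adjusted p = 0.187 or 0.143). Over 9 omissions the adjusted p of the rise ran from 0.000373 to 0.187 in KO cells and from 0.000826 to 0.399 in WT cells.

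Zfp36l1 encodes a relative of tristetraprolin that is also needed in lymphocyte development. In KO cells, in libraries 414, 4120 and 6110, it stood at 102.4, 85.1 and 100.6 CPM at level 0, at 375, 311.9 and 241 CPM at level 20 and at 132.2, 123.1 and 110.9 CPM at level 60. In WT cells the same libraries held 93.7, 65.2 and 66.7 CPM at level 0, 305.8, 308.1 and 231.8 CPM at level 20 and 99.1, 75.1 and 98.9 CPM at level 60. Level 20 stood apart from both other levels with no overlap in either genotype. The rise at level 20 was 3.22-fold in KO cells (log2 1.69 ± 0.21, SE, adjusted p = 0.000418) and 3.75-fold in WT cells (log2 1.91 ± 0.22, SE, adjusted p = 0.000149). The fall from level 20 to level 60 was 2.53-fold in KO cells (log2 -1.34 ± 0.21, SE, adjusted p = 0.00618) and 3.10-fold in WT cells (log2 -1.63 ± 0.21, SE, adjusted p = 0.00158). These 4 calls held without each single library. With a whole number left out of all groups, the adjusted p reached 0.164 for the rise in KO cells, 0.0974 for the rise in WT cells, 0.271 for the fall in KO cells and 0.25 for the fall in WT cells. In the edgeR test Zfp36l1 was the only member of which both the rise and the fall were called in both genotypes. With DESeq2 and with limma-voom, both changes of Zfp36 and Zfp36l2 were called in both genotypes as well.

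Zfp36l2, the third family member, is required for blood stem cells and was the most abundant of the 6 at level 0. In KO cells, in libraries 414, 4120 and 6110, it stood at 202.3, 125.2 and 226.8 CPM at level 0, at 491.2, 325.8 and 281.6 CPM at level 20 and at 170.4, 131.0 and 185.3 CPM at level 60. In WT cells the same libraries held 150.0, 127.3 and 192.8 CPM at level 0, 381.3, 331.3 and 355.4 CPM at level 20 and 170.6, 154.9 and 200.6 CPM at level 60. Level 20 was highest without overlap in both genotypes. Between levels 20 and 0 the log2 difference was 0.99 ± 0.26 in KO cells (SE, adjusted p = 0.221) and 1.18 ± 0.26 in WT cells (SE, adjusted p = 0.0547), neither a call. With the library numbers as a block both were called, at 1.02 in KO cells (adjusted p = 0.0388) and 1.20 in WT cells (adjusted p = 0.00858), and over 10 alternatives the adjusted p ran from 0.015 to 1 in KO cells and from 0.000963 to 0.397 in WT cells. From level 20 to level 60 Zfp36l2 fell 2.26-fold in KO cells (log2 -1.18 ± 0.26, SE, adjusted p = 0.0388), and the log2 change in WT cells was -1.02 (adjusted p = 0.121). The call in KO cells was lost without any 1 of the KO libraries at level 20 or 60, with adjusted p between 0.0603 and 0.227.

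Zc3h12a encodes Regnase-1, the endonuclease that cuts stem-loops in the Il6 and Il12b mRNAs. In KO cells, in libraries 414, 4120 and 6110, it stood at 15.0, 22.1 and 15.4 CPM at level 0, at 51.4, 44.3 and 48.4 CPM at level 20 and at 38.6, 39.8 and 37.3 CPM at level 60. In WT cells the same libraries held 18.9, 29.7 and 19.5 CPM at level 0, 64.2, 54.8 and 60.6 CPM at level 20 and 26.0, 24.5 and 41.4 CPM at level 60. In KO cells every library at level 60 was above every library at level 0 and below every library at level 20. In WT cells level 60 overlapped level 0, and WT library 6110 was the highest of the 3 at level 60. The rise at level 20 was 2.74-fold in KO cells (log2 1.46 ± 0.23, SE, adjusted p = 0.00343) and 2.64-fold in WT cells (log2 1.40 ± 0.23, SE, adjusted p = 0.00505). At level 60 Zc3h12a was above level 0 in KO cells by 1.14 ± 0.23 (log2, SE, adjusted p = 0.0113), while in WT cells the log2 difference was 0.43 ± 0.22 (SE, adjusted p = 0.696). From level 20 to level 60 the log2 change was -0.32 in KO cells (adjusted p = 0.733) and -0.97 in WT cells (adjusted p = 0.0823).

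The WT rise at level 20 had an adjusted p of 0.0542 without WT library 414 at level 0. The KO call at level 60 was lost without KO library 414 or 6110 at level 0, with adjusted p of 0.0834 or 0.0525. Without WT library 6110 at level 60 the fall in WT cells was called, at -1.26 on the log2 scale (adjusted p = 0.019). Over 9 omissions each, the adjusted p ran from 0.00336 to 0.454 for the WT rise at level 20, from 0.00471 to 0.364 for the KO rise at level 20, from 0.0176 to 0.211 for the KO rise at level 60 and from 0.019 to 0.97 for the WT fall.

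Rc3h1 and Rc3h2 encode Roquin-1 and Roquin-2, which bind constitutive decay elements and hold back Icos and Tnfrsf4 in T cells. In KO cells, in libraries 414, 4120 and 6110, Rc3h1 stood at 19.6, 12.8 and 29.0 CPM at level 0, at 27.6, 28.9 and 19.1 CPM at level 20 and at 26.2, 31.9 and 39.97 CPM at level 60. In WT cells the same libraries held 15.8, 14.8 and 17.97 CPM at level 0, 27.2, 26.0 and 22.3 CPM at level 20 and 24.4, 20.6 and 35.2 CPM at level 60. In KO cells the levels overlapped. In WT cells levels 20 and 60 each lay above level 0 without overlap, with log2 differences of 0.64 (adjusted p = 0.78) and 0.72 (adjusted p = 0.451), and none of the Rc3h1 comparisons between levels was a call.

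No level stood apart for Rc3h2. In KO cells its 9 values ran from 23.8 to 34.9 CPM and in WT cells from 18.3 to 30.2 CPM. The largest log2 difference between levels was 0.29, between levels 20 and 0 in WT cells (adjusted p = 0.99). Each level overlapped each other level in both genotypes.

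Across the 6 groups, Zfp36, Zfp36l1 and Zfp36l2 were highest in KO cells at level 20 and next in WT cells at level 20, which overlapped, with a gap below them. Zc3h12a had its highest mean in WT cells at level 20, then KO cells at level 20, then KO cells at level 60, with no overlap between the first pair or the second. For Rc3h1 and Rc3h2 each group overlapped the next in order.

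Counts of members whose libraries did not overlap gave 4 of 6 higher at level 20 than at level 0 in KO cells and 5 of 6 in WT cells, beside 4.20% and 5.46% of all genes. At level 60 against 20, 4 of 6 were lower in KO cells and 4 of 6 in WT cells, beside 8.61% and 6.10% of all genes. At level 60 against 0, 3 of 6 were higher in KO cells and 1 of 6 in WT cells, beside 9.18% and 5.41%.

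**Figure D3:**
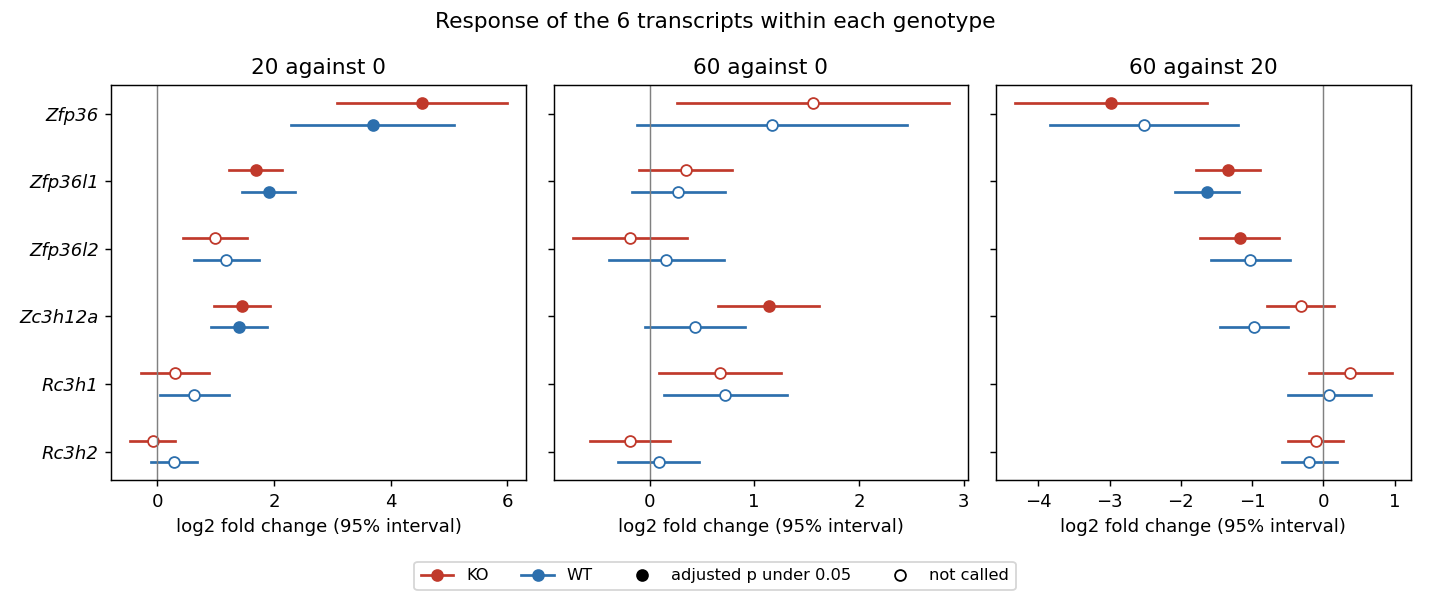
Log2 fold change with its 95% interval for each member between levels 20 and 0, 60 and 0, and 60 and 20, in KO cells and WT cells, with filled points for adjusted p under 0.05. The 3 ZFP36 genes lie to the right of 0 at level 20 and to the left of 0 between 60 and 20, while Rc3h2 stays near 0.

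Level 60 CPM as a share of level 20 CPM were computed between libraries of the same number. They serve as a description, since in WT cells the numbers were not read as pairing these levels. For Zfp36 the median over libraries was 11.7% in KO cells (10.3% to 17.6%) and 11.95% in WT cells (7.60% to 25.1%). For Zfp36l1 it was 39.5% in KO cells (35.3% to 46.0%) and 32.4% in WT cells (24.4% to 42.7%). For Zfp36l2 it was 40.2% in KO cells (34.7% to 65.8%) and 46.8% in WT cells (44.7% to 56.4%). Zfp36 had the smallest median share of the 6 members in both genotypes.

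For Zc3h12a the median share of level 20 CPM at level 60 was 76.9% in KO cells (75.0% to 89.8%) and 44.8% in WT cells (40.4% to 68.2%). The difference in change between genotypes is given with the other interactions below.

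The second question was whether Sirt6 deficiency moved the decay factors themselves. No member was called between KO and WT cells at level 0, 20 or 60, where 0.274%, 0.210% and 0.268% of all genes were called. At each level 0 of the 6 had an unadjusted p under 0.05, and DESeq2 and limma-voom called 0 as well. Of the 17159 genes tested, 2078, 1336 and 1843 had such a p at levels 0, 20 and 60. At level 60, where the numbers paired the libraries, the block called 183 of all genes in place of 46 and still none of the members. The members' median log2 difference was 0.29, 0.03 and 0.25 at levels 0, 20 and 60, beside 0.01, -0.02 and 0.02 over all genes.

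Zfp36 averaged 5.32 ± 1.47 CPM in KO cells and 5.96 ± 4.90 CPM in WT cells at level 0 (SD, n = 3 each). At level 20 it averaged 123.8 ± 35.9 CPM in KO cells and 77.7 ± 33.7 CPM in WT cells. At level 60 it averaged 15.7 ± 3.13 CPM in KO cells and 13.5 ± 13.6 CPM in WT cells. The KO minus WT log2 differences were -0.18, 0.67 and 0.21 at levels 0, 20 and 60, with adjusted p of 0.924, 0.764 and 0.927. The 95% interval at level 20 ran from -0.58 to 1.92, which holds both a lower and a several times higher level in KO cells. At level 60, where the numbers were read as pairing the libraries, Zfp36 was higher in KO cells in 2 of 3 pairs and lower in the pair numbered 6110.

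Zfp36l1 had a positive difference at each level, with no call. The log2 difference was 0.35, 0.13 and 0.42 at levels 0, 20 and 60, with adjusted p of 0.511, 0.873 and 0.474, and at level 60 it was higher in KO cells in 3 of 3 pairs and the KO libraries lay above the WT libraries without overlap, as did 7.34% of all genes. Over all levels together the difference was 0.30 ± 0.12 (log2, SE, unadjusted p = 0.0231, adjusted p = 0.108). It was 1 of 6 members with an unadjusted p under 0.05 there, beside 5149 of the 17159 genes tested. That comparison called 10.9% of all genes and none of the 6 members, with 0 called by DESeq2 and limma-voom. Of 11 alternatives 1 called Zfp36l1, and its adjusted p over them ran from 0.0399 to 0.692.

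Zfp36l2 averaged 184.8 ± 53.0 CPM in KO cells and 156.7 ± 33.3 CPM in WT cells at level 0 (SD, n = 3 each), 366.2 ± 110.5 CPM in KO cells and 356 ± 25.01 CPM in WT cells at level 20, and 162.2 ± 28.1 CPM in KO cells and 175.4 ± 23.2 CPM in WT cells at level 60. The groups overlapped throughout. The log2 differences were 0.24, 0.04 and -0.11, with adjusted p of 0.724, 0.975 and 0.903.

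No genotype difference in Zc3h12a was called, and its sign at level 60 was opposite to that at levels 0 and 20. It averaged 17.5 ± 4.003 CPM in KO cells and 22.7 ± 6.07 CPM in WT cells at level 0, 48.1 ± 3.58 CPM in KO cells and 59.9 ± 4.78 CPM in WT cells at level 20, and 38.5 ± 1.27 CPM in KO cells and 30.6 ± 9.33 CPM in WT cells at level 60 (SD, n = 3 each). At level 20 every KO library was below every WT library, as for 8.95% of all genes. The log2 differences were -0.37 ± 0.22, -0.32 ± 0.22 and 0.33 ± 0.22 at levels 0, 20 and 60 (SE), with adjusted p of 0.516, 0.711 and 0.608. At level 60 it was higher in KO cells in 2 of 3 pairs.

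The Roquin genes did not differ by a call either. Rc3h1 averaged 20.5 ± 8.13, 25.2 ± 5.29 and 32.7 ± 6.93 CPM in KO cells at levels 0, 20 and 60, and 16.2 ± 1.62, 25.2 ± 2.57 and 26.7 ± 7.55 CPM in WT cells (SD, n = 3 each). Rc3h2 averaged 29.1 ± 5.55, 27.6 ± 4.36 and 25.6 ± 1.247 CPM in KO cells, and 22.3 ± 3.70, 27.2 ± 3.15 and 23.7 ± 2.41 CPM in WT cells. The largest of their genotype differences was 0.38 ± 0.18 for Rc3h2 at level 0 (log2, SE, unadjusted p = 0.0513, adjusted p = 0.418).

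**Figure D4:**
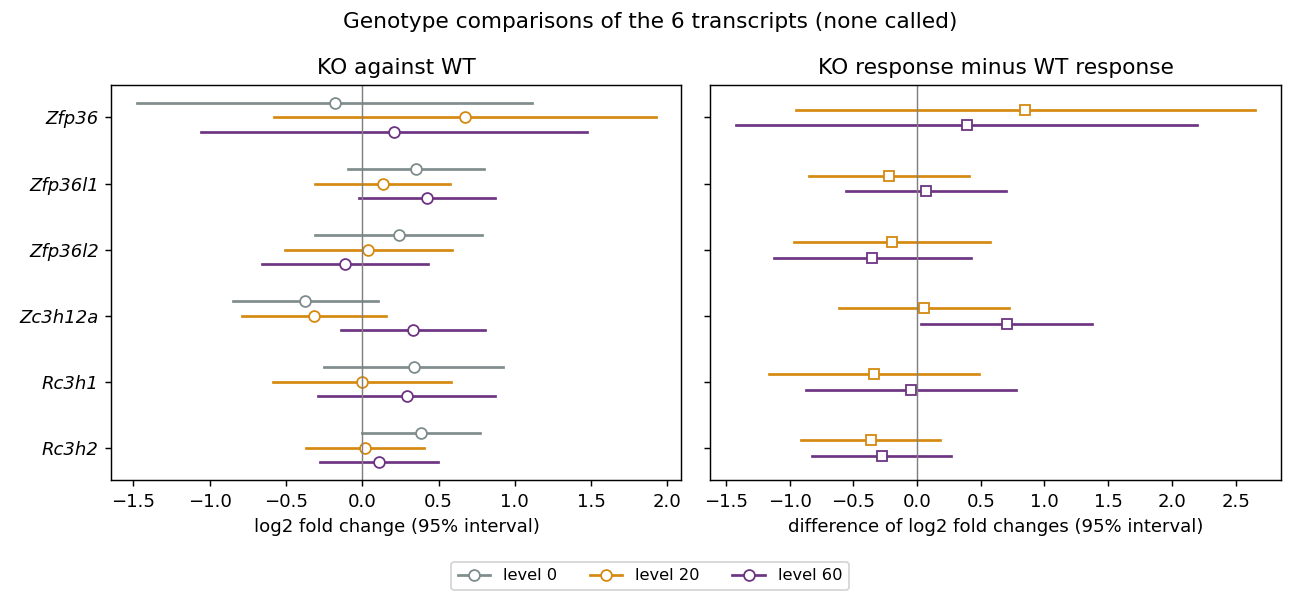
Log2 difference with its 95% interval for each member, KO against WT at levels 0, 20 and 60, and the KO response minus the WT response at levels 20 and 60. No interval belongs to a call, and Zfp36 has the widest intervals of the 6.

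Differences between the genotypes in the response itself were tested as interactions. For the responses at levels 20 and 60 and for the change from 20 to 60, 0% of all genes were called and no member had an adjusted p under 1. For Zfp36 the KO response at level 20 minus the WT response was 0.85 on the log2 scale, with an interval from -0.95 to 2.65. Leaving out libraries moved it to between -0.095, without WT library 6110 at level 0, and 1.26, without WT library 6110 at level 20. For Zc3h12a the difference in response at level 60 was 0.70 ± 0.32 (log2, SE), with an interval from 0.03 to 1.38. Its unadjusted p was 0.0412, the only one of a member under 0.05 in any interaction, beside 188 of the 17159 genes tested for that response. Its change from 20 to 60 differed by 0.65, with an unadjusted p of 0.0565. DESeq2 and limma-voom called none of the 6 in any interaction.

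Other genes of mRNA decay were then taken in lists. Of 18 genes of the CCR4-NOT complex and other deadenylases, 1 rose at level 20 in KO cells and 2 rose in WT cells. Over all genes 0.443% and 0.600% were called higher in these comparisons. Btg2, an antiproliferative protein that binds the CCR4-NOT deadenylase, held 40.4, 162.1 and 185.5 CPM in KO cells at level 20, against 3.12, 3.63 and 5.80 CPM in KO cells at level 0. In WT cells it held 59.3, 67.0 and 153.2 CPM at level 20, against 1.54, 2.94 and 6.34 CPM at level 0. No library at level 20 overlapped level 0, and the rise was 4.95 in KO cells (adjusted p = 0.00151) and 4.72 in WT cells (adjusted p = 0.00244), both on the log2 scale. Btg2 was lower at level 60 than at level 20, with log2 changes of -3.25 in KO cells (adjusted p = 0.0235) and -4.10 in WT cells (adjusted p = 0.00892). The call in KO cells was lost without any 1 of 5 of the 6 KO libraries at those levels (adjusted p 0.0827 to 0.113).

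Tob2, a related adaptor, rose by 1.59 in WT cells at level 20 (log2, adjusted p = 0.019) and by 1.73 in KO cells between levels 60 and 0 (adjusted p = 0.00541). The WT call was lost without any 1 of 5 of the 6 WT libraries at those levels (adjusted p 0.0589 to 0.165). The median over the 18 genes at level 20 against 0 was -0.01 in KO cells and -0.04 in WT cells.

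Of 13 relatives and partners of Regnase-1, Zc3h12c, which encodes Regnase-3, was the only one called between levels. It held 39.2, 69.7 and 75.6 CPM in KO cells at level 60, against 7.44, 8.14 and 14.1 CPM in KO cells at level 0. In WT cells it held 23.7, 71.2 and 72.8 CPM at level 60, against 9.97, 13.4 and 15.8 CPM at level 0. Level 60 did not overlap level 0 in either genotype. The rise at level 60 was 2.63 in KO cells (log2, adjusted p = 0.0025) and 2.1 in WT cells (log2, adjusted p = 0.0461), and between levels 60 and 20 it was 2.37 in KO cells (adjusted p = 0.0118). At level 20 its libraries held 10.1 to 13.7 CPM in KO cells and 10.8 to 22.2 CPM in WT cells, where Zfp36 and Zfp36l1 had their highest values. The WT call was lost without any 1 of 5 of the 6 libraries (adjusted p 0.0691 to 0.315), and the KO call against level 0 held without each single library. The KO call between levels 60 and 20 was lost without any 1 of 4 of the 6 libraries (adjusted p 0.0508 to 0.0768). With the library numbers as a block, 4 of the 13 rose in KO cells between levels 60 and 0, in place of 1, and 2 in place of 1 between levels 60 and 20.

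Among 16 decapping and 5′ decay genes, 15 exosome genes, 8 other AU-rich element binding proteins and 8 kinases and phosphatase subunits that act on ZFP36, edgeR called 0 genes between levels in either genotype. At an unadjusted p under 0.05, between levels 60 and 0, the kinase list held 3 genes in KO cells and 1 in WT cells, the decapping and exosome lists 0 each in KO cells and 1 each in WT cells, and the other binding proteins 1 in KO cells and 0 in WT cells. Of the 17159 genes tested, 2440 in KO cells and 1363 in WT cells had such a p. DESeq2 called 1 of the kinase list between levels 60 and 0 in KO cells and none of the other 3 lists, while limma-voom called 3 of the kinase list and 1 of the binding proteins there. With the library numbers as a block, 2 of the kinase list were called there. In that list the log2 difference between levels 60 and 0 was positive for 7 of 8 genes in KO cells, with a median of 0.57, and for 8 of 8 in WT cells, with a median of 0.455, beside all-gene medians of 0.00 and -0.02. Mapkapk2, the kinase that phosphorylates tristetraprolin and holds it inactive, differed by 1.23 in KO cells between levels 60 and 0 (log2, adjusted p = 0.112).

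Between genotypes edgeR called 0 genes of these lists at any single level, with at most 3 of a list under an unadjusted p of 0.05 and 0 called by DESeq2 and limma-voom. Of the 17159 genes tested, 2078, 1336 and 1843 were under that p at levels 0, 20 and 60. At level 60 the block called 1 of the Regnase list. Over all levels together, where 10.9% of all genes were called, Cnot6l, a catalytic deadenylase subunit, was higher in KO cells by 0.57 (log2, adjusted p = 0.00885). Pan3, Dcp1b, Skiv2l, Upf1 and Tial1 were lower in KO cells, by log2 differences of -0.47, -0.47, -0.45, -0.41 and -0.72, with adjusted p of 0.0394, 0.014, 0.0348, 0.0498 and 0.0254. In the order given they encode a deadenylase adaptor, a decapping cofactor, an exosome helicase, the helicase of nonsense-mediated decay that also works with Regnase-1, and an AU-rich element binding protein. None of these 6 calls held in limma-voom, with the number within each genotype modelled as a random effect. There adjusted p was 0.136 for Cnot6l and between 0.207 and 0.392 for the other 5. Over 11 alternatives the adjusted p of Cnot6l ran from 0.000458 to 0.281, and the highest for the other 5 lay between 0.364 and 0.49. Pan3, Skiv2l and Upf1 were called in 7, 4 and 4 of 21 omissions of libraries.

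**Figure D5:**
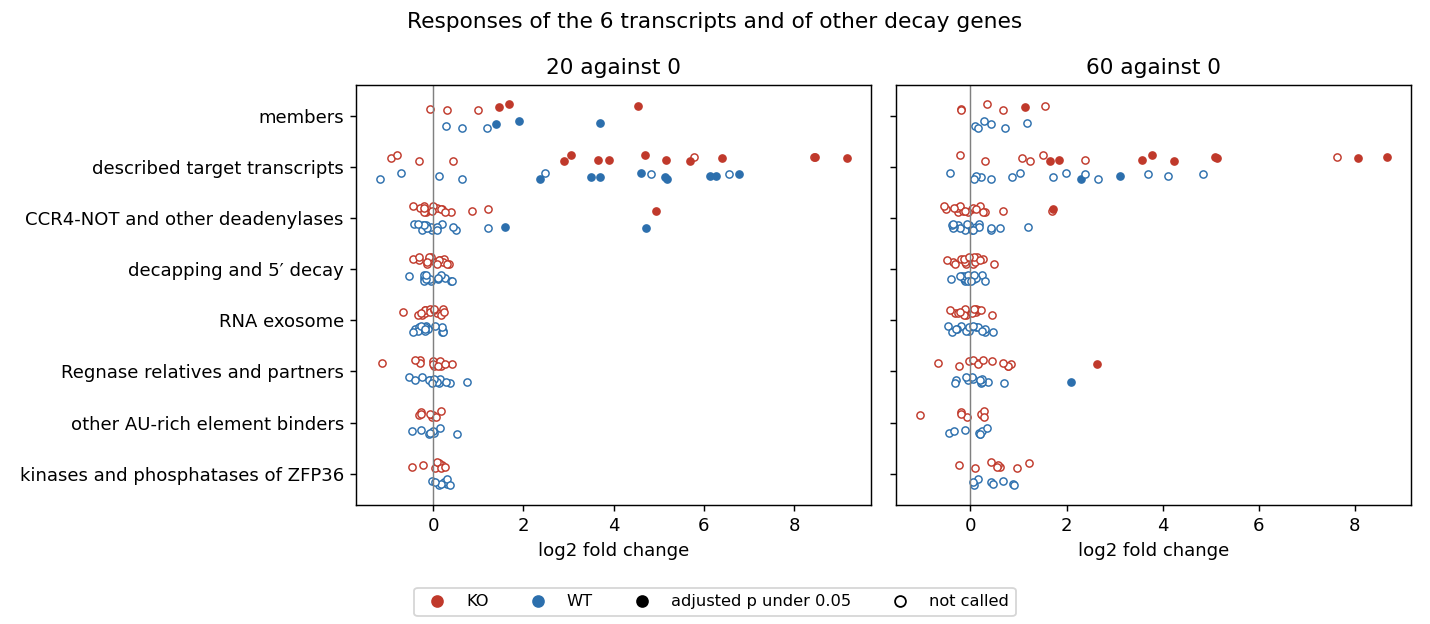
Log2 fold change of each tested gene of the 6 members and of 7 lists, between levels 20 and 0 and between levels 60 and 0, in KO cells and WT cells. At level 20, 10 of 16 described targets rose in KO cells and 9 of 16 in WT cells, beside 0.443% and 0.600% of all genes. No exosome or decapping gene was called.

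Many of the transcripts that these factors are described to destroy rose at level 20. Of 20 described targets 16 were tested, a choice of genes made with earlier results of these data known. At level 20 against 0, 10 of 16 rose in KO cells and 9 of 16 in WT cells, beside 0.443% and 0.600% of all genes. In each genotype 11 of 16 were higher without overlap, beside 4.20% of all genes in KO cells and 5.46% in WT cells. Ptgs2, the inducible cyclooxygenase, rose by 6.39 in KO cells (log2, adjusted p = 7.43e-06) and by 6.27 in WT cells (log2, adjusted p = 6.66e-06). Nfkbid, a nuclear inhibitor of the NF-kappaB family, rose by 5.69 in KO cells (adjusted p = 1.67e-05) and by 5.17 in WT cells (adjusted p = 4.23e-05). Tnf held 792.2, 901.8 and 1368 CPM in KO cells at level 20, against 1.87, 3.11 and 3.63 CPM in KO cells at level 0. In WT cells it held 353.7, 859.9 and 937.8 CPM at level 20, against 4.26, 4.37 and 10.7 CPM at level 0. The genotypes overlapped for Tnf at level 20.

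Between levels 60 and 20, 2 of 16 targets fell in KO cells and 7 of 16 in WT cells, beside 0.361% and 0.286% of all genes. Tnf fell in both, by log2 changes of -3.37 in KO cells (adjusted p = 0.0116) and -4.39 in WT cells (adjusted p = 0.00237). Nfkbiz, another nuclear NF-kappaB cofactor, fell by log2 changes of -1.81 in KO cells (adjusted p = 0.0391) and -2.83 in WT cells (adjusted p = 0.00378). Between levels 60 and 0, 9 of 16 rose in KO cells, where 1.99% of all genes were called higher. In WT cells 2 of 16 rose, where 34 of the 17159 genes were called higher, so calls were also fewer there over all genes. At level 60 Ptgs2 stood at 26.95, 32.1 and 41.4 CPM in KO cells and 6.10, 8.90 and 15.1 CPM in WT cells.

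These counts per genotype were compared through the interaction. For the KO minus WT response at level 60, edgeR called 0 of the 16, with 7 under an unadjusted p of 0.05, and DESeq2 and limma-voom called 0. Of the 17159 genes tested, 188 were under that p. The difference in response was 2.70 for Tnf (log2, unadjusted p = 0.00317) and 2.01 for Ptgs2 (log2, unadjusted p = 0.00444), each with an adjusted p of 1. Leaving out libraries took the KO count between levels 60 and 0 to between 1 and 8, and the WT counts to between 0 and 5 for levels 60 and 0 and 0 and 7 for levels 60 and 20.

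At level 60, KO against WT, 14 of 16 targets were positive with a median log2 difference of 1.09, beside 0.02 over all genes, and 8 of 16 were higher without overlap, beside 7.34% of all genes. edgeR called 0 of the 16, with 7 under an unadjusted p of 0.05, and DESeq2 called 3. Of the 17159 genes tested, 1843 were under that p. Il6, the classical Regnase-1 target, held 98.2, 99.5 and 131.6 CPM in KO cells and 17.2, 27.1 and 41.5 CPM in WT cells. Ccl3, a chemokine, held 233.6, 269.2 and 411.3 CPM in KO cells and 33.1, 79.0 and 130.4 CPM in WT cells. Both stood higher in all KO libraries than in any WT library. The log2 difference was 1.94 ± 0.40 for Il6 (SE, adjusted p = 0.0567) and 1.91 ± 0.41 for Ccl3 (SE, adjusted p = 0.0704). With the library numbers as a block, 2 of the 16 were called, Il6 at 1.89 (adjusted p = 0.0355) and Ccl3 at 1.90 (adjusted p = 0.044). Over 10 alternatives the adjusted p ran from 0.000383 to 0.144 for Il6 and from 0.00043 to 0.403 for Ccl3. Over 9 omissions of libraries it ran from 0.0338 to 0.647 for Il6, called in 2, and from 0.0226 to 0.673 for Ccl3, called in 1. Without WT library 6110 at level 60 both were called, at 2.33 for Il6 (adjusted p = 0.0411) and 2.46 for Ccl3 (adjusted p = 0.0226). At level 60 the neutrophil markers summed to 12.4 to 22.3 CPM in KO libraries and 0.106 to 5.29 CPM in WT libraries, and the macrophage markers to 111 to 289 CPM in KO libraries and 35.1 to 193 CPM in WT libraries, and their part in these differences was not tested. The 3 basophil markers summed to 154 to 198 CPM in KO libraries and 156 to 233 CPM in WT libraries at level 60. Mcpt8 and Prss34 were higher in KO cells over all levels, by log2 differences of 1.985 and 2.48 (adjusted p = 0.0334 and 0.0379). These calls come from edgeR alone, which took libraries of the same number within a genotype as independent. The number of all genes called in that comparison ran from 26 to 3972 over the alternatives. The third basophil marker, Cd200r3, had a log2 difference of -0.13 over all levels, not a call (adjusted p = 0.571). It averaged 152 CPM over the 18 libraries, against 5.69 CPM for Mcpt8 and 1.78 CPM for Prss34, so it made up most of the sum. The part of basophils was not tested either. Over the same libraries at level 60 none of the 6 decay factors was lower in KO cells by a call, and Zfp36l2 alone had a negative difference. These are mRNA levels only, and the part of the decay factors in the target differences was not tested.

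The genes whose CPM followed each member most closely over the 18 libraries were taken, as a description, from the 9270 genes that averaged 5 CPM or more. These libraries share levels, genotypes and library numbers, so a common response to the levels enters each correlation. Zfp36 went with the immediate-early genes Ier2, Egr1 and Junb (Pearson r 0.97, 0.96 and 0.96). Zfp36l1 went with Nfkbiz, Jun and Gpr137c (r 0.95, 0.95 and 0.94), of which Nfkbiz is itself among the described targets. Zfp36l2 went with Cited2, Enc1 and Dyrk3 (r 0.94, 0.92 and 0.89), and Zc3h12a with Rgs1, Plk3 and Nr4a1 (r 0.95, 0.95 and 0.95). Rc3h1 went with Ddx3x, Arf6 and Pak2 (r 0.94, 0.91 and 0.89) and Rc3h2 with Tnpo1, Avl9 and Pja2 (r 0.90, 0.89 and 0.88).

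Among the members the 3 ZFP36 genes correlated with each other at r between 0.88 and 0.89 over the 18 libraries. Zc3h12a correlated with Zfp36 at 0.83, with Zfp36l1 at 0.78 and with Zfp36l2 at 0.62. Rc3h1 and Rc3h2 correlated with each other at 0.33. With group means removed, the correlation of Zfp36 with Zfp36l1 was -0.01 and that with Zfp36l2 was 0.64.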

How the data were processed

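Whole-gene mRNA-Seq was analysed in 18 libraries, made from 1 μg of total RNA with a TruSeq kit, per the labels' protocols. The authors deposited counts and TPM per gene, without strand stated. Reads were handled with bcl2fastq 2.20.0, FastQC 0.11.7, HISAT2 2.1.0 and StringTie 2.1.3b on mm10, per the submitters' processing notes. The deposited FPKM column was not used. Groups follow the labels. The members and lists were chosen with earlier results of these data known.

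Deposited counts were tested with edgeR 4.0.16 in R 4.3.3 (filterByExpr, TMM, 1 mean per group over all 18 libraries), with Benjamini-Hochberg adjustment over 17159 genes in each of 13 comparisons. CPM use TMM-scaled library sizes, and correlations use log2 CPM with a prior count of 2. Fold changes come from the fitted model. The steps were tested on simulated data. From each list and comparison, up to 4 called genes with the smallest adjusted p are named, or, with no call, up to 2 with the smallest unadjusted p, and not every comparison is described. Marker genes and genes of like pattern are named up to 3 each by mean CPM or correlation.

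Alternatives were DESeq2 1.42.0, limma 3.58.1 (voom with number and genotype as a random effect, within-culture correlation 0.447, or log2(TPM + 0.1) at a mean of at least 0.5 TPM), other scalings, no filter, a replicate block, mitochondrial share as a covariate, only the groups compared, and leaving out libraries. All pairs of libraries of a group differed by more than sampling noise. Deviations from group means correlated over 0.1 in every pair of the same number for KO against WT at 60 (0.431 to 0.526), WT 20 against 0 (0.622 to 0.763) and the KO comparisons of levels (0.333 to 0.667), so the numbers were read as pairing there and not elsewhere. Gene identifiers matched RefSeq for 99.8% of genes. Reference sequences were matched by symbol.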

Additional observations from a re-analysis of the deposited data

How the results depend on the processing

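No called log2 fold change of a member changed sign in any alternative. The number of members called moved by more than 1.5 times in these cases. KO against WT over all levels gave 1 with the replicate block (Zfp36l1, adjusted p = 0.0399, over 11 alternatives 0.0399 to 0.692) in place of 0. WT 20 against 0 gave 1 in place of 3 with only the groups compared. WT 60 against 20 gave 4 in place of 1 with the block, the block with mitochondrial share, limma-voom and DESeq2, 2 with limma on TPM and 0 with only the groups compared. KO 60 against 0 gave 2 in place of 1 with the block and mitochondrial share, only the groups compared and limma-voom, and 0 with library size alone and limma on TPM. KO 60 against 20 gave 1 in place of 3 with library size alone and limma on TPM. Within 1.5 times, other alternatives gave 2 to 4 in place of 3 for both WT 20 against 0 and KO 20 against 0. The cause was not tested.

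Leaving out libraries gave 0 to 1 for KO against WT over all levels, 1 to 3 for WT 20 against 0, 0 to 3 for WT 60 against 20, 0 to 3 for KO 20 against 0, 0 to 1 for KO 60 against 0 and 0 to 1 for KO 60 against 20, beside 0 in each for the other 7. Without a number in all groups, 2 libraries a group remained. Without number 6110 in all groups Zfp36 was higher in KO cells over all levels, at 1.05 (adjusted p = 0.0167, over all 21 omissions 0.0167 to 0.908).

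The number of all genes called ranged over alternatives from 19 to 290 at level 0, 26 to 149 at 20, 19 to 224 at 60 and 26 to 3972 over all levels for KO against WT, where edgeR called 47, 36, 46 and 1872. It ranged from 53 to 201 (WT 20 against 0), 0 to 525 (WT 60 against 0), 3 to 529 (WT 60 against 20), 62 to 136 (KO 20 against 0), 72 to 1906 (KO 60 against 0) and 16 to 940 (KO 60 against 20). With library size alone the all-gene median shifted by 0.16 in the genotype comparisons at levels 0 and 20, and by -0.22 in KO 60 against 0 and against 20. The 18 libraries limit small differences, and a gene with few counts such as Csf2, with no count in KO cells at level 0, is given no fold.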
